A study of Homo sapiens with 6 samples.

Results

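The genes described here are 10 transcriptional outputs and feedback inhibitors of the RAS-RAF-MEK-ERK (MAPK) pathway, measured by RNA-seq in 8505C cells, a BRAF-mutant line of anaplastic thyroid cancer (ATC). They were chosen by gene symbol, from a list of genes known to follow ERK activity, with earlier results of these data known. They are the dual-specificity phosphatases DUSP4, DUSP5 and DUSP6, the Sprouty genes SPRY2 and SPRY4, the related SPRED1 and SPRED2, the ETS transcription factors ETV4 and ETV5, and PHLDA1. All 10 were among the 32985 genes of the deposited table and among the 11725 genes tested, which had a mean of at least 1 FPKM (fragments scaled by transcript length and by the mapped fragments of the library) over the libraries. The study compared 3 libraries of cells given a control siRNA (siCtrl, genotype WT) with 3 libraries of cells given an siRNA against NUF2 (siNUF2, NUF2 knockdown), all taken at 24 h. NUF2 is a subunit of the outer kinetochore complex that ties chromosomes to the spindle. Both groups were 8505C cells in RPMI-1640 with fetal bovine serum, transfected with jetPRIME, and the knockdown rests on 1 siRNA sequence in 1 cell line. The labels give the replicates numbers 1 to 3 and do not say whether they were separate cultures, so p-values measure the spread between these libraries, which may be technical.

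In siCtrl libraries 1, 2 and 3, NUF2 was at 14.8, 14.5 and 12.2 FPKM, and in siNUF2 libraries 1, 2 and 3 it was at 1.53, 2.05 and 1.56 FPKM. That left 12.4% of the control level (log2 fold change -2.99, SE 0.17, edgeR quasi-likelihood test, adjusted p = 0.00051), so the targeted gene followed the labels in all 6 libraries. Total counts ran from 61257859 to 69755291 per library, and the members had between 2105 and 17901 reads in a library. Of the thyroid follicular markers, NKX2-1 had a mean of at least 1 FPKM, and TG, FOXE1, SLC5A5 and DIO1 were under 0.1 FPKM in every library. The keratins KRT7, KRT8, KRT18 and KRT19 and the mesenchymal genes VIM, CDH2 and FN1 were expressed, while CDH1 and PDGFRA were under 0.1 FPKM throughout. Summed immune and endothelial markers stayed between 1.58 and 5.34 FPKM in the 6 libraries.

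In this pathway, activated RAF phosphorylates MEK, MEK phosphorylates ERK, and ERK switches on a set of genes within hours. Part of that set feeds back on the cascade. DUSP phosphatases remove the activating phosphates from ERK, and Sprouty and SPRED proteins restrain signalling at the level of RAS and RAF. ETV4 and ETV5, with ETV1, form the PEA3 subfamily of ETS factors, which carry ERK signalling on to further genes and are repressed by CIC when ERK is inactive. A BRAF-mutant cell drives MEK without an upstream signal, and such cells typically keep these genes on, so the set is commonly read as a measure of ERK output.

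An siRNA can also pair with other mRNAs through its seed, the bases 2 to 8 of its antisense strand, much as a microRNA does. The seed of the NUF2 siRNA pairs with the word TATGGAA. The site targeted in NUF2 is coding and sits in exon 6 of 14, and the word was present in the 3′ UTR of 4 of the 10 members, all in the last exon. The sequences are shown because these 4 members include the 3 with the lowest log2 fold changes. They are from GENCODE release 44 on GRCh38, read 5′ to 3′ along the mRNA, with the word in capitals, and for the members the coordinates are those of the capitals.
NUF2 target, chr1:163336814-163336834, plus strand: gccgtgaaacgtaTATGGAAt
DUSP6, chr12:89347241-89347247, minus strand, exon 3 of 3: aaaggcaggtgTATGGAAtcaaaa
SPRED1 site 1, chr15:38351748-38351754, plus strand, exon 7 of 7: ttggcaagcaaTATGGAAtcttgcctggt
SPRED1 site 2, chr15:38354150-38354156, plus strand, exon 7 of 7: ctgaatccctaTATGGAAattttcttttg
ETV5, chr3:186046928-186046934, minus strand, exon 13 of 13: cactttatagcTATGGAAacatgagattc
PHLDA1, chr12:76026069-76026075, minus strand, exon 2 of 2: gatgtattggtTATGGAAtcatgtgttgg

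In control cells, DUSP5 was the highest of the 10 genes on the FPKM scale, which is per transcript length, at 48.1 ± 10.1 FPKM (SD, n = 3). This placed it in the top 6.51% of the genes tested. PHLDA1 (23.5 ± 3.44), DUSP4 (20.9 ± 2.75), ETV4 (18.9 ± 0.648) and DUSP6 (16.8 ± 2.21) followed. ETV5 (13.4 ± 0.887), SPRED2 (11.5 ± 1.37), SPRY2 (10.9 ± 2.22), SPRED1 (9.90 ± 0.467) and SPRY4 (8.10 ± 0.696) were lower, and SPRY4, the lowest, was still in the top 40.4%. The 10 genes were thus all well expressed in the BRAF-mutant cells. Of the 9 neighbouring pairs in this order, the siCtrl libraries did not overlap in 3, DUSP5 over PHLDA1, DUSP6 over ETV5 and SPRED1 over SPRY4. In the other 6 pairs the values overlapped. Compared within each siCtrl library, ETV4 was still above DUSP6 and ETV5 above SPRED2 in every one. In the rest of these pairs the order differed between libraries.

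With NUF2 knocked down, 1 of the 10 genes passed the edgeR test without a replicate term, ETV5, which fell. Over all genes tested, 3.99% were called in either direction, 2.46% lower and 1.53% higher. A called gene is one with an adjusted p under 0.05 in the edgeR test, with p-values adjusted over all 11725 genes. Libraries of the same replicate number deviated together, and with the replicate number in the model (the replicate block) 4 of 10 were called, ETV5, DUSP6 and SPRED1 lower and SPRY2 higher. The block also raised the share of all genes called to 14.5%, with 7.91% lower and 6.64% higher. Counted by libraries, DUSP6, SPRY4, SPRED1 and ETV5 were lower in every siNUF2 library than in any siCtrl library, against 13.4% of all genes, and ETV4 was higher in every one, against 10.5%. The median log2 fold change of the members was -0.15, with 7 below and 3 above 0, and that of all genes tested was 0.01. In such bulk samples, fewer cells that express a gene and less RNA per cell cannot be told apart.

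**Figure D1:**
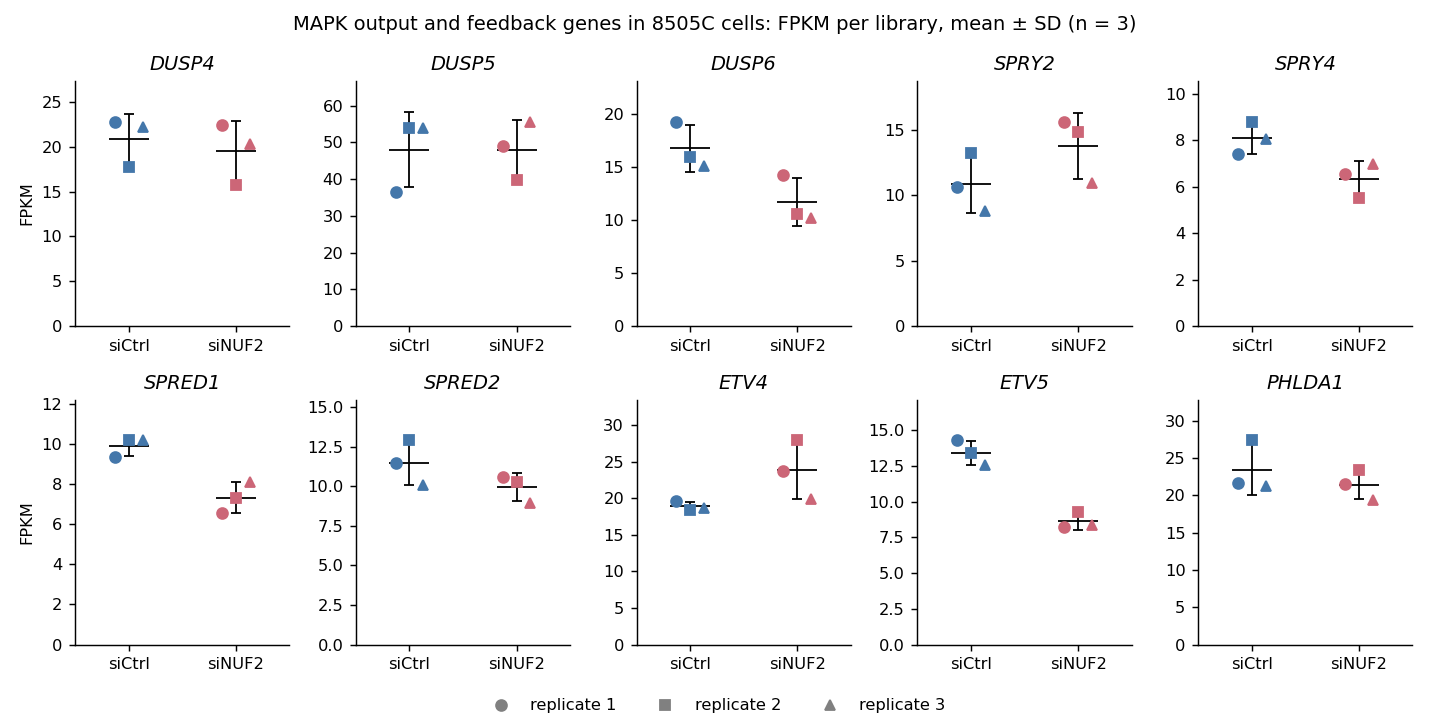
FPKM (vertical axis of each panel, starting at 0) of the 10 genes in the siCtrl and siNUF2 libraries, with symbols for the replicate number and lines for the mean ± SD of 3 libraries. The groups are apart in DUSP6, SPRY4, SPRED1, ETV4 and ETV5 and overlap in DUSP4, DUSP5, SPRY2, SPRED2 and PHLDA1.

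Among the phosphatases, DUSP6 was the lowest relative to its control level. DUSP6 (ENSG00000139318, chromosome 12 from 89347235 to 89352501, minus strand) encodes the cytoplasmic phosphatase that acts on ERK itself and is among the most used reporters of ERK activity. It was at 19.3, 16.0 and 15.1 FPKM in siCtrl 1, 2 and 3, and at 14.3, 10.6 and 10.2 FPKM in siNUF2 1, 2 and 3. Library 1 was the highest in both groups, and the highest siNUF2 library was below the lowest siCtrl library. The mean went from 16.8 ± 2.21 to 11.7 ± 2.26 FPKM, 69.6% of control, and the log2 fold change was -0.50 (SE 0.15, 95% interval -0.86 to -0.15). The adjusted p was 0.135 in edgeR without the block, 0.00527 with the replicate block (log2 fold change -0.51, SE 0.07) and 0.0358 in DESeq2. Within the numbered pairs, siNUF2 had 74.1%, 66.1% and 67.6% of the siCtrl level. The DUSP6 3′ UTR, of 2019 bases, held the seed word once, 6 bases before the end of the transcript.

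DUSP4 and DUSP5 did not pass the test in any of the fits run. DUSP4 (ENSG00000120875, chromosome 8 from 29333064 to 29350684, minus strand) is a nuclear phosphatase induced by ERK, and it was at 22.8, 17.8 and 22.2 FPKM in siCtrl and 22.4, 15.8 and 20.3 FPKM in siNUF2. Library 2 was the lowest in both groups, and the groups overlapped. Its log2 fold change was -0.08 (SE 0.15, 95% interval -0.43 to 0.26, edgeR adjusted p = 0.828). DUSP5 (ENSG00000138166, chromosome 10 from 110497907 to 110511533, plus strand), a nuclear phosphatase specific for ERK, was at 36.4, 54.0 and 53.8 FPKM in siCtrl and 48.9, 39.7 and 55.6 FPKM in siNUF2. The group means were equal at 48.1 FPKM, with SDs of 10.1 and 8.01, while the pairs went in different directions, at 134%, 73.4% and 103% of control. The 95% interval of its log2 fold change (0.02, SE 0.18) was -0.40 to 0.43, and the edgeR adjusted p was 0.973.

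The Sprouty genes had log2 fold changes of opposite sign, neither of which passed the test without the block. SPRY2 (ENSG00000136158, chromosome 13 from 80335976 to 80341126, minus strand) was at 10.6, 13.2 and 8.81 FPKM in siCtrl and 15.6, 14.8 and 10.9 FPKM in siNUF2. Library 3 was the lowest in both groups, siNUF2 3 lay within the range of the siCtrl libraries, and siNUF2 was higher in each pair, at 148%, 112% and 124% of control. The log2 fold change was 0.36 (SE 0.18, 95% interval -0.06 to 0.79), with an adjusted p of 0.359 in edgeR and of 0.0481 with the replicate block (SE 0.10). SPRY4 (ENSG00000187678, chromosome 5 from 142310427 to 142326455, minus strand) was at 7.41, 8.80 and 8.08 FPKM in siCtrl and 6.55, 5.50 and 6.99 FPKM in siNUF2. Each siNUF2 library was below each siCtrl library, and the mean was 78.4% of control. The log2 fold change of SPRY4 was -0.33 (SE 0.12, 95% interval -0.61 to -0.06), and the adjusted p was 0.195 in edgeR and 0.0809 with the replicate block. It passed in 1 alternative, DESeq2 with the replicate block (adjusted p = 0.0267), which was chosen after the data had been seen.

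SPRED1 and SPRED2 encode membrane-bound relatives of Sprouty, and SPRED1 brings the RAS inhibitor neurofibromin to the membrane. SPRED1 (ENSG00000166068, chromosome 15 from 38252836 to 38357249, plus strand) was at 9.36, 10.2 and 10.2 FPKM in siCtrl and 6.56, 7.31 and 8.13 FPKM in siNUF2. The groups did not overlap, library 1 was the lowest in each, and the pairs stood at 70.1%, 71.7% and 80.0% of control. The log2 fold change was -0.41 (SE 0.11, 95% interval -0.66 to -0.16), with an adjusted p of 0.0888 in edgeR, 0.0119 with the replicate block and 0.0243 in DESeq2. SPRED1 held 2 copies of the seed word, at positions 84 and 2486 of a 3′ UTR of 5585 bases, the longest of the members. SPRED2 (ENSG00000198369, chromosome 2 from 65310851 to 65432599, minus strand) was at 11.5, 12.9 and 10.1 FPKM in siCtrl and 10.6, 10.3 and 8.96 FPKM in siNUF2. These groups overlapped, and SPRED2 held no copy of the word. Its log2 fold change was -0.19 (SE 0.12, 95% interval -0.46 to 0.09), and it did not pass without the block (adjusted p = 0.476 in edgeR) or with it (adjusted p = 0.143).

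ETV5 was the member that fell, and ETV4, of the same PEA3 subfamily, was higher in siNUF2. ETV5 (ENSG00000244405, chromosome 3 from 186046314 to 186110318, minus strand) was at 14.3, 13.4 and 12.6 FPKM in siCtrl and 8.22, 9.29 and 8.35 FPKM in siNUF2. The highest siNUF2 value was below the lowest siCtrl value, and the gap between them exceeded the range within either group. The mean went from 13.4 ± 0.887 to 8.62 ± 0.587 FPKM, 64.1% of control, with the pairs at 57.4%, 69.2% and 66.5%. The log2 fold change was -0.62 (SE 0.10, 95% interval -0.85 to -0.39), and the adjusted p was 0.0169 in edgeR and 0.00407 with the replicate block. Leaving out 1 library raised the edgeR adjusted p past the threshold for siCtrl 1 (0.0706), siCtrl 2 (0.0532), siNUF2 1 (0.0808) and siNUF2 3 (0.0616), with log2 fold changes from -0.68 to -0.57 over the 6 such fits. The ETV5 3′ UTR of 2325 bases held the seed word once, at position 1705.

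ETV4 (ENSG00000175832, chromosome 17 from 43527844 to 43546340, minus strand) was at 19.6, 18.4 and 18.7 FPKM in siCtrl and 23.7, 27.9 and 19.9 FPKM in siNUF2. The control libraries lay close together and the siNUF2 libraries were spread, with siNUF2 3 just above the highest control. The mean went from 18.9 ± 0.648 to 23.9 ± 3.99 FPKM, 126% of control, and the log2 fold change was 0.36 (SE 0.13, 95% interval 0.05 to 0.66). The adjusted p was 0.205 in edgeR, 0.0731 with the replicate block, and 0.0139 in DESeq2 with the replicate block. In the deposited table ETV4 overlaps DHX8 on the other strand (5.29 to 6.83 FPKM), and whether the counting used the strand is not given in the sources used here, so reads from the shared stretch cannot be told apart. The other genes that overlap a member were at most at 0.825 FPKM.

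PHLDA1 (ENSG00000139289, chromosome 12 from 76025447 to 76031776, minus strand) encodes a pleckstrin homology-like protein whose transcript follows ERK activity. It was at 21.7, 27.4 and 21.3 FPKM in siCtrl and 21.6, 23.4 and 19.4 FPKM in siNUF2. Library 2 was the highest and library 3 the lowest in both groups, and the groups overlapped. The log2 fold change was -0.11 (SE 0.13, 95% interval -0.40 to 0.19, adjusted p = 0.73 in edgeR and 0.371 with the replicate block). The PHLDA1 3′ UTR of 4672 bases held the seed word once, at position 4044.

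**Figure D2:**
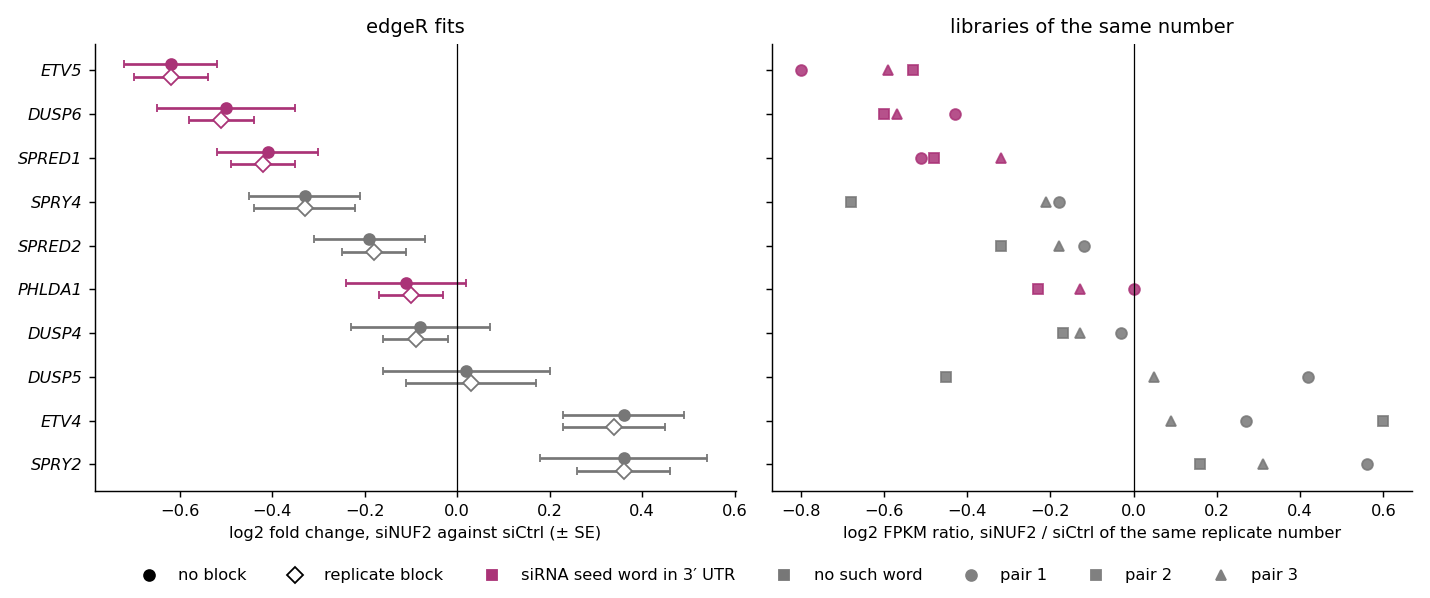
Left, log2 fold change (horizontal axis) of each gene in edgeR with its SE, without (filled circles) and with (open diamonds) the replicate block; right, log2 FPKM ratio of siNUF2 over siCtrl for each replicate number. Genes with the seed word in the 3′ UTR are in purple, and ETV5 (-0.62), DUSP6 (-0.50) and SPRED1 (-0.41) stand lowest, while PHLDA1, also purple, is at -0.11.

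The block moved the calls of DUSP6, SPRED1 and SPRY2 but hardly their fold changes. That of ETV4 moved most, from 0.36 to 0.34, while the SE of DUSP6 went from 0.15 to 0.07 and that of SPRY2 from 0.18 to 0.10. In 3 of the 10 genes (DUSP4, DUSP6 and PHLDA1) the 3 libraries had the same order in both groups, against 33.6% of the genes tested. What a replicate number shares is stated neither in the labels nor in the study's methods.

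Because the fold changes within a family were unlike, the ratio of its members within each library was taken, which does not depend on the size of the library. The ETV4/ETV5 ratio of FPKM was 1.37, 1.37 and 1.49 in siCtrl and 2.89, 3.00 and 2.39 in siNUF2. The lowest siNUF2 value was well above the highest siCtrl value, and the mean went from 1.41 ± 0.0705 to 2.76 ± 0.327. ETV1, the remaining PEA3 gene, was at 2.57, 2.27 and 2.11 FPKM in siCtrl and 1.51, 1.45 and 1.39 FPKM in siNUF2, and it fell (log2 fold change -0.65, SE 0.13, edgeR adjusted p = 0.0363). The ETV1/ETV5 ratio stayed at 0.172 ± 0.00636 and 0.169 ± 0.0141, and ETV4/ETV1 went from 8.20 ± 0.633 to 16.4 ± 2.55. The group difference was 0.96 on the log2 scale for ETV4/ETV5 and 1.00 for ETV4/ETV1. The pairs of genes were chosen with their fold changes known, so the ratios restate those values within each library and are no independent evidence of a difference.

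In the Sprouty pair, the SPRY2/SPRY4 ratio was 1.42, 1.5 and 1.09 in siCtrl and 2.38, 2.68 and 1.56 in siNUF2, and the groups did not overlap (means 1.34 ± 0.219 and 2.21 ± 0.577). Among the phosphatases, DUSP4/DUSP6 was 1.18, 1.11 and 1.47 in siCtrl and 1.57, 1.49 and 1.99 in siNUF2, again without overlap. SPRED2/SPRED1, DUSP5/DUSP6 and DUSP5/DUSP4 overlapped between the groups. Within the numbered pairs, siNUF2 was the higher in all 3 for SPRED2/SPRED1 (1.23 and 1.62, 1.27 and 1.41, 0.999 and 1.10 in siCtrl and siNUF2) and for DUSP5/DUSP6 (1.89 and 3.42, 3.38 and 3.75, 3.57 and 5.46). With 3 against 3 libraries the two-sided exact permutation test cannot go below p = 0.1, which ETV4/ETV5, ETV4/ETV1, SPRY2/SPRY4 and DUSP4/DUSP6 reached (0.2 after Benjamini-Hochberg adjustment over the 8 ratios). This test could therefore not pass a threshold of 0.05 for any ratio.

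**Figure D3:**
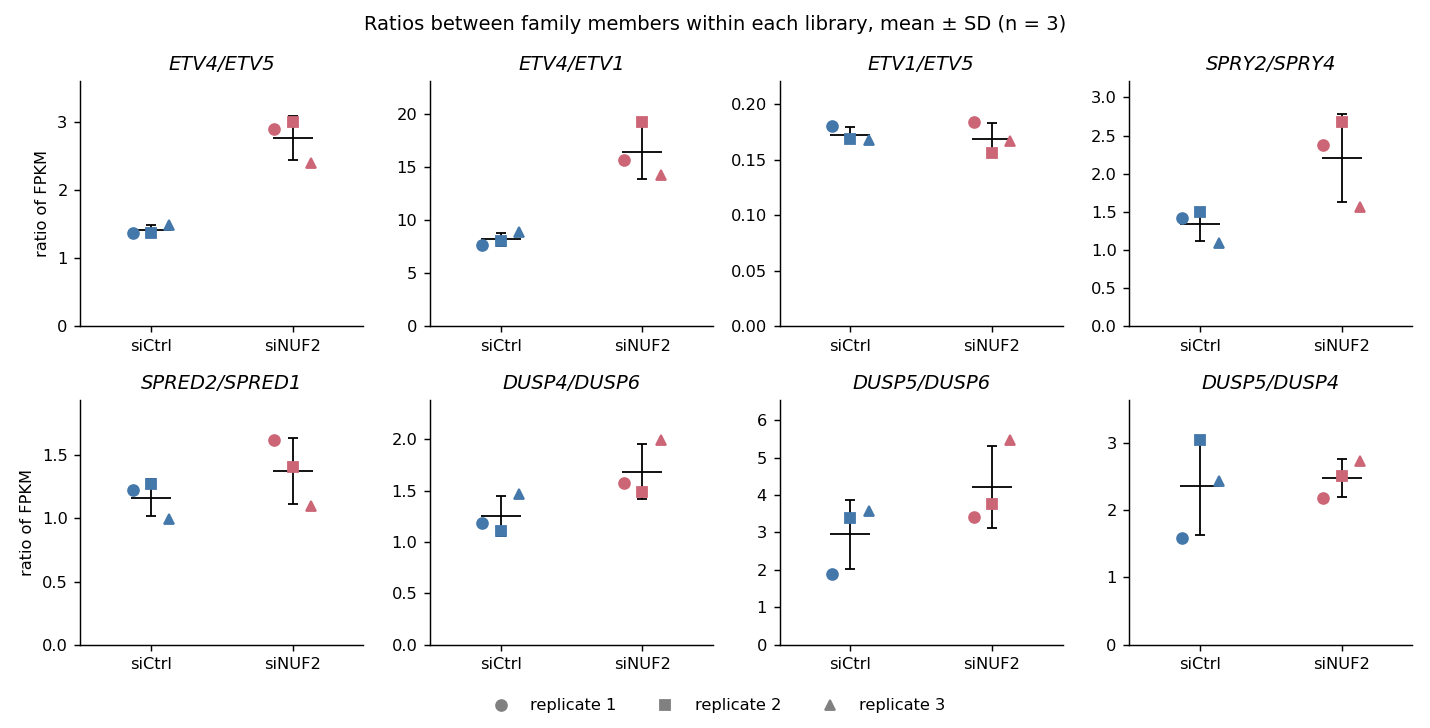
Ratio of FPKM between 2 family members (vertical axis, starting at 0) in each library, with the mean ± SD of 3 libraries per group. ETV4/ETV5, ETV4/ETV1, SPRY2/SPRY4 and DUSP4/DUSP6 are higher in every siNUF2 library than in any siCtrl library, and ETV1/ETV5 is level.

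Over the 10 genes, the mean of log2(FPKM + 1) was 4.06, 4.15 and 4.03 in siCtrl and 3.99, 3.90 and 3.88 in siNUF2, without overlap and lower in each numbered pair. The summed FPKM was 173, 192 and 181 in siCtrl and 178, 165 and 169 in siNUF2, so by this measure, on which DUSP5 weighs most, the groups overlapped. Neither measure was tested.

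The 4 members with the seed word (DUSP6, SPRED1, ETV5 and PHLDA1) had a median log2 fold change of -0.46, from -0.62 to -0.11, and all 4 were below 0. The 6 members without it had a median of -0.03, from -0.33 (SPRY4) to 0.36, with 3 below 0. The word was searched on the mRNA strand in the longest annotated 3′ UTR of each gene, and 16.1% of the 10174 genes tested that have one held it. Those 1637 genes had a median log2 fold change of -0.10, and 10.2% of them were called lower. For the 8537 genes without the word the median was 0.02, and 1.37% were called lower. Genes with the word also had longer 3′ UTRs (median 3196 bases, against 1274 bases). Among the members, SPRY2 and ETV4, both at a log2 fold change of 0.36, had the shortest 3′ UTRs at 782 and 675 bases, while DUSP4 and SPRY4, with 3962 and 3782 bases, held no copy. The shorter word ATGGAA, the last 6 bases of the seed word, was counted as well. DUSP4, SPRY4 and SPRED2 held 1 copy each of this shorter word, and DUSP5, SPRY2 and ETV4 held 0. The part of the seed word in the changes of DUSP6, SPRED1 and ETV5 was not tested.

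Of 13 relatives of the members, 9 had enough signal to be tested, and 1, ETV1, was called (lower). The relatives with the highest control means were DUSP1, a nuclear phosphatase that also acts on JNK and p38, at 178 FPKM, and PHLDA2 at 74.2 FPKM. PHLDA3 (9.32), DUSP7 (9.01), DUSP10 (2.03), DUSP2 (1.93), SPRED3 (1.79) and DUSP9 (1.22) were lower, and DUSP8, DUSP16, SPRY1 and SPRY3 did not reach the filter. DUSP1 was at 131, 185 and 218 FPKM in siCtrl and 109, 113 and 157 FPKM in siNUF2, with overlap, and PHLDA2 was at 74.3, 74.2 and 74.3 FPKM in siCtrl and 47.6, 55.1 and 59.4 FPKM in siNUF2, without. In edgeR at a mean of at least 1 FPKM, both were called lower with the replicate block and not without it. DUSP1 was at a log2 fold change of -0.48 (edgeR adjusted p = 0.277 without and 0.0135 with the block) and PHLDA2 at -0.44 (0.0725 and 0.0161). DESeq2 without the block called 2 of the 9 relatives, against 972 of 11481 genes over the whole table. At a mean FPKM of at least 5, edgeR called 1 of the 4 relatives tested, against 340 of 6542 genes. The ETV1 call rested on all libraries, since it was lost in each of the 6 fits without 1 library (edgeR adjusted p from 0.0739 to 0.143), and its 3′ UTR held 2 copies of the seed word.

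In the cascade from RAS to ERK, 20 of 20 genes were tested, with a median log2 fold change of -0.07. Without the block DESeq2 called 4 of the 20, against 972 of 11481 genes over the whole table. The single call in edgeR was SOS2, an exchange factor that loads RAS with GTP. SOS2 was at 3.75, 3.17 and 3.24 FPKM in siCtrl and 2.20, 1.92 and 2.10 FPKM in siNUF2 (log2 fold change -0.69, SE 0.13, edgeR adjusted p = 0.0297). This call was lost in each edgeR fit without 1 library (adjusted p from 0.0651 to 0.12), and the SOS2 3′ UTR held the seed word once. With the block, SOS1 (log2 fold change -0.44, adjusted p = 0.0402), SHOC2, which helps to activate RAF (-0.51, 0.0454), and MAP2K1, which encodes MEK1 (-0.32, 0.0231), were also called lower, the values in parentheses being the log2 fold change without the block and the adjusted p with it. PTPN11, which encodes the phosphatase SHP2, was called higher with the block (0.41, 0.0266). The most abundant gene of the list, the RAF inhibitor PEBP1, was at 55.4 FPKM in control cells.

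Of 22 other ERK output genes, 20 were tested and 2 were called, both lower. HBEGF, a ligand of the EGF receptor, was at 20.6, 26.8 and 27.7 FPKM in siCtrl and 12.5, 12.1 and 14.3 FPKM in siNUF2, 51.9% of control (log2 fold change -0.93, SE 0.14, edgeR adjusted p = 0.0117). CCND1, which encodes cyclin D1, was at 115, 120 and 128 FPKM in siCtrl and 73.0, 77.7 and 82.5 FPKM in siNUF2, 64.1% of control (-0.62, SE 0.09, adjusted p = 0.0127). Neither gene overlapped between the groups, and the CCND1 3′ UTR held the seed word once while that of HBEGF did not. HBEGF lost its call without siNUF2 1 (edgeR adjusted p = 0.0639), and CCND1 without siCtrl 3 (0.0554) or siNUF2 1 (0.0615).

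The immediate early gene EGR1 had the largest fold change in that list, at 54.2, 119 and 79.1 FPKM in siCtrl and 30.0, 61.1 and 32.6 FPKM in siNUF2. Library 2 was the highest in both groups and the groups overlapped, and siNUF2 was at 55.3%, 51.6% and 41.2% of control within the pairs. Its log2 fold change of -1.0 had an edgeR adjusted p of 0.174 without and of 0.00113 with the block. In edgeR over all libraries, LIF (-0.79, 0.0154 with the block) and JUNB (-0.47, 0.00847) were also called lower with the block and not without it. The membrane protein gene EMP1 (0.54, 0.00821) and MYC (0.53, 0.0321) were likewise called higher. DESeq2 without the block called 3 of the 20 genes tested, against 972 of 11481 genes over the whole table. FOSL1, which encodes FRA1 and was the most abundant of the list, was at 139, 145 and 149 FPKM in siCtrl and 134, 115 and 136 FPKM in siNUF2 (log2 fold change -0.15, edgeR adjusted p = 0.483). The ERK output genes beyond the members thus held calls in both directions with the block, 3 higher and 5 lower, around a median of -0.05. Over all genes tested, 6.64% were called higher and 7.91% lower with the block.

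**Figure D4:**
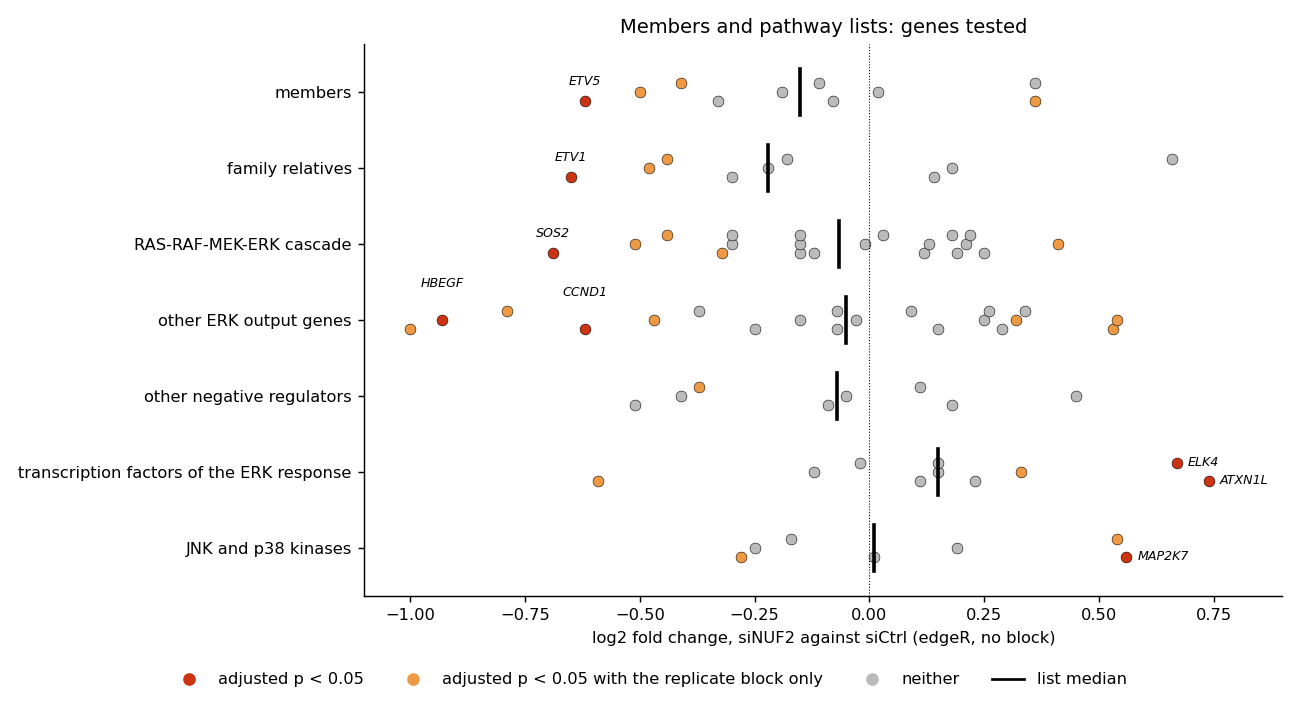
Log2 fold change in edgeR without the block (horizontal axis) of each tested gene of the members and of 6 pathway lists (rows), coloured by whether it passed without the block, with the block alone, or in neither, with the median of each list as a line. The member median lies at -0.15 and the list medians between -0.22 (family relatives) and 0.15 (transcription factors).

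Of 10 other negative regulators of RAS and receptors, 8 were tested and edgeR called 0, with 3 at an unadjusted p under 0.05 and 0 called by DESeq2. Over all 11725 genes tested, 2129 were at an unadjusted p under 0.05 in edgeR without the block, and DESeq2 called 972 of 11481. The RAS GTPase-activating protein gene RASA2 was called lower with the block (log2 fold change -0.37, adjusted p = 0.15 without and 0.04 with it). ERRFI1, an inhibitor of the EGF receptor, was the most abundant of these at 43.9 FPKM in control cells. All 10 transcription factors of the ERK response were tested, and ELK4 and ATXN1L were called higher. ELK4, which acts with SRF, was at 2.83, 3.93 and 3.34 FPKM in siCtrl and 5.10, 5.24 and 5.46 FPKM in siNUF2 (log2 fold change 0.67, SE 0.13, edgeR adjusted p = 0.0315). ATXN1L, a partner of the repressor CIC, was at 4.82, 5.47 and 5.36 FPKM in siCtrl and 10.3, 7.10 and 8.45 FPKM in siNUF2 (0.74, SE 0.14, adjusted p = 0.0272). Neither overlapped between the groups.

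Each of these calls remained past the threshold in 1 of the 6 edgeR fits without 1 library, ELK4 without siCtrl 2 (adjusted p = 0.0325) and ATXN1L without siNUF2 2 (0.0261), and was lost in the other 5, up to 0.102 and 0.103. With the block, ELK1 (log2 fold change 0.33, adjusted p = 0.0329) was called higher and ETS2 (-0.59, 0.0149), with 2 copies of the seed word, lower, and ETS1 was the most abundant at 28.0 FPKM in control cells. Among 8 kinases of the JNK and p38 branches, 7 were tested, and MAP2K7, which activates JNK, was called higher. It was at 6.57, 6.51 and 6.05 FPKM in siCtrl and 10.0, 9.28 and 8.48 FPKM in siNUF2 (0.56, SE 0.10, edgeR adjusted p = 0.0279), without overlap, and the call remained in 1 of 6 fits without 1 library (without siNUF2 3, adjusted p = 0.0499, others up to 0.118). In edgeR over all libraries, MAPK8, which encodes JNK1, was called higher with the block and not without it (0.54, adjusted p = 0.0744 without and 0.00574 with the block). MAPK9, which encodes JNK2, was in the same way called lower (-0.28, 0.195 and 0.0474). DESeq2 without the block called 2 of the 7 kinases tested, against 972 of 11481 genes over the whole table. MAP2K3, an activator of p38, was the most abundant at 31.1 FPKM in control cells.

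Pooled, 74 of the 83 listed genes outside the members were tested, with a median log2 fold change of -0.03. In edgeR without the block, 3 were called higher and 4 lower, against 1.53% and 2.46% of all genes tested. With the block, 9 were called higher and 15 lower, against 6.64% and 7.91% of all genes tested. The seed word was in the 3′ UTR of 16 of the 74 (21.6%). Of the 4 called lower without the block, 3 held it (ETV1, SOS2 and CCND1), and of the 3 called higher, 0 did. Over all genes tested that have a 3′ UTR, 167 of those called lower held the word and 117 did not. Of those called higher, 18 held it and 156 did not. With the block, 6 of the 15 called lower and 0 of the 9 called higher held the word. The other 9 lower calls, among them HBEGF, EGR1 and DUSP1, were of genes without it. Of the shorter word ATGGAA, HBEGF held 1 copy, DUSP1 held 2 and EGR1 held 0. The part of the seed word in these calls was not tested.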

How the data were processed

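Poly(A) RNA of 3 siCtrl and 3 siNUF2 libraries was sequenced as 2 × 150 bp pairs. The authors used fastp, HISAT2 (GRCh38) and StringTie, and deposited FPKM, normalized for transcript length and sequencing depth, and raw counts for each gene. Versions, the counting tool, the annotation release and the strand setting are not given in the sources used here. All 12 per-sample columns were used.

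Counts were tested with edgeR's quasi-likelihood test (TMM, mean FPKM of at least 1, Benjamini-Hochberg adjustment over 11725 genes, adjusted p under 0.05). Levels are the FPKM as deposited. The code was tested on simulated data. No library was a copy of another, with a chi-square over its degrees of freedom of 54.7 to 77.7 between replicates. Deviations from the group means correlated at 0.328 to 0.438 between libraries of the same number and at -0.269 to -0.14 between others. Such deviations cancel within a group, so positive values for the same number force negative ones between others. The negative values are thus no separate evidence of pairing. From the positive values, the numbers were taken to pair the libraries in the replicate block and in the values given for pairs. The edgeR test without the block had no replicate term and did not use this pairing. The replicate block was an alternative, beside DESeq2, DESeq2 size factors, DESeq2 with the block (added after the data had been seen), other filters, limma on log2(FPKM + 1) and log2(FPKM + 0.1), an F-test of nested linear models on log2(FPKM + 1), and leaving out each library. The common dispersion was 0.0452, and 0.0218 with the block.

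The members, the pathway lists and the ratios were chosen with earlier results of these data known. From the lists, the text names each gene called without the block, up to 5 per list (by size of fold change) whose call the block changed, and the most abundant. The 3′ UTRs (at least 50 bases, the longest per gene) came from GENCODE release 44, in which 8 of 10 members had the ends given in the deposited table. Statistics were run in R 4.3.3 (edgeR 4.0.16, DESeq2 1.42.0, limma 3.58.1) and Python 3.11.15 (pandas 2.3.3, scipy 1.17.1, numpy 2.4.6), and plots with matplotlib 3.10.9.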

Additional observations from a re-analysis of the deposited data

How the results depend on the processing

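Over the whole table, where edgeR called 468 of 11725 genes, 1705 were called with the replicate block. DESeq2 called 972 of 11481, and 2380 of 11043 with the replicate block. There were 188 calls without a filter, 78 by the F-test, and 124 to 251 without 1 library. Of the members, where 1 was called, the count was 4 with the replicate block, 3 by DESeq2, 6 by DESeq2 with the replicate block, 0 by the F-test (4 at an unadjusted p under 0.05), and 0 to 1 in edgeR without 1 library (3 to 6 at an unadjusted p under 0.05). Of the pathway genes, where 7 were called, it was 24 with the replicate block, 14 by DESeq2, 29 by DESeq2 with the replicate block, 2 without a filter, 4 by limma with either pseudocount, 0 by the F-test (18 at an unadjusted p under 0.05), and 0 to 4 in edgeR without 1 library (16 to 23 at an unadjusted p under 0.05). For comparison, 2129 of the 11725 genes were at an unadjusted p under 0.05 in edgeR over all libraries without the block. The same share for the F-test and for fits without 1 library is not given here. Fits without 1 library and without a filter have fewer samples or more genes, and the cause of the other differences was not tested.

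DUSP5 changed sign at a mean FPKM of at least 5 (-0.00) and without 1 library (-0.15 to 0.13), and DUSP4 (-0.19 to 0.04) and PHLDA1 (-0.18 to 0.02) without 1 library, and none of these values was called. The other 7 members kept their direction in all 15 alternatives. With FPKM divided by the TMM factors, the control mean of each member moved by less than the SD of its siCtrl libraries. Leaving out 1 siCtrl library cannot shift the mean of so small a group by an SD, so it could not test these levels. With at least 2105 reads for each member in each library, the 95% intervals of DUSP4, DUSP5, SPRY2, SPRED2 and PHLDA1 still spanned 0.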
